A study of Mus musculus with 6 samples.

Results

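A set of 10 genes of the immediate early response was followed in cardiomyocyte RNA from mice given doxorubicin or vehicle. They are Fos, Fosb, Jun, Junb, Egr1, Atf3, Ier2, Myc, Nr4a1 and Dusp1, chosen by name as 10 of the 24972 gene rows of the table. All 10 passed the filter on low values (a mean of at least 10 normalized counts over the 6 libraries), as did 12477 gene rows in all. The vehicle group was 3 MX1gfp mice, which carry a green fluorescent protein reporter of Mx1, an interferon-stimulated gene, injected intraperitoneally with phosphate-buffered saline. The doxorubicin group was 3 MX1gfp mice injected with 25 mg of doxorubicin per kg, an anthracycline that poisons topoisomerase II and damages DNA. Both groups carried the reporter and both were taken 48 hours after the injection, when hearts were perfused, digested with collagenase and dissociated, and ventricular myocytes were settled by gravity. Values of a gene are listed below in the order of replicates 1, 2 and 3 of each group. The labels give no age or sex, and settling enriches myocytes without sorting them.

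Immediate early genes are transcribed within minutes of a stimulus, without the need for new protein, by factors that already sit in the cell, such as serum response factor with its ternary complex partners and the cAMP response element binding protein. Their RNAs are short-lived. Fos and Jun family proteins pair to form the transcription factor AP-1, Egr1 is a zinc finger factor, Atf3 is a stress-induced factor of the ATF/CREB family, Nr4a1 is an orphan nuclear receptor, Myc is a growth regulator, Ier2 is a small nuclear protein and Dusp1 is a phosphatase that switches MAP kinases off again. In the heart the family is known for its response to haemodynamic load, to stretch and to adrenergic stimulation, and enzymatic dissociation of tissues is a known inducer as well. What the animal held and what the isolation may have added cannot be told apart here.

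Libraries differed in ways that touch every value below. The values summed to between 5410780 and 7500390 per library. Taking the most common low value as 1 read, depth was roughly 7690000 to 11300000 reads after vehicle, against 3660000 to 6190000 after doxorubicin, so every doxorubicin library was shallower than every vehicle library. Doxorubicin replicate 1 stood apart from the other doxorubicin libraries: it correlated with the vehicle libraries at 0.977 to 0.982 (Spearman, across genes, which are not independent replicates), against 0.896 to 0.914 for replicate 2 and 0.860 to 0.876 for replicate 3. Its 4 atrial markers summed to 1426, against 456 to 526 after vehicle and 368 and 692 in doxorubicin replicates 2 and 3, and its 3 erythroid markers to 8358, against 1098 to 1999 after vehicle and 245 and 421. Results are therefore given with and without it. Singling it out rested on these same values, and leaving out the doxorubicin library most like vehicle favours larger differences. The summed level of 8 cardiomyocyte markers ran from 579033 to 676719 after vehicle, against 507142, 167985 and 143743 after doxorubicin, with 6 of the 8 lower in every doxorubicin library than in any vehicle library, against 22.6% of all genes tested. The labelled cell type was thus present in all 6 libraries. The 9 macrophage markers summed to 1855 to 1993 after vehicle, against 2856, 5338 and 8804 after doxorubicin, with 8 of the 9 higher in every doxorubicin library than in any vehicle library, against 19.2% of all genes tested. The 5 neutrophil markers summed to 9.88 to 20.8 against 50.8, 535 and 403, with Ly6g at 0 in the vehicle libraries and doxorubicin replicate 1, and the 7 fibroblast markers to 6081 to 7984 against 8364, 22707 and 16161. Dcn carried most of the fibroblast sum in doxorubicin replicates 2 and 3, at 2446 to 2905 after vehicle, against 3113, 18072 and 11326 after doxorubicin. Without it the other 6 summed to 3574 to 5079 against 5250.4, 4635 and 4835, and Col3a1 was lower in doxorubicin replicates 2 and 3 than in any vehicle library. The 6 endothelial markers summed to 11436 to 14962 after vehicle, against 19058, 16303 and 21676 after doxorubicin. Of these, 3 were higher without overlap, against 19.2% of all genes tested, while Kdr was below every vehicle library in doxorubicin replicates 2 and 3. The part of these cell types in the results below was not tested. In such bulk RNA fewer cells of a type and less RNA per cell cannot be told apart.

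The question for each gene was whether its RNA differed between doxorubicin and vehicle. None of the 10 genes passed. At a Benjamini-Hochberg adjusted p under 0.05 with limma, 0 of the 10 were called, as were 0.0% of the 12477 genes tested, and at an unadjusted p under 0.05 the count was 0 of the 10 against 35.9% of all genes tested. The smallest adjusted p of this fit was 0.0859, which many genes share through the adjustment. Among genes named below, Dusp8 and Srf share it at unadjusted limma p of 0.000497 and 0.0116, so it does not rank such genes. The mean log2 value after doxorubicin was lower in 7 of the genes (Atf3, Fosb, Fos, Nr4a1, Jun, Egr1 and Dusp1) and higher in 3 (Myc, Junb and Ier2), with a median log2 difference of -0.39 over the 10 and of -0.0046 over all genes tested. That median was -0.090 with each library scaled to the same total and -0.075 with quantile normalization. With equal totals 5 of the 10 were lower and 5 higher, as Egr1 and Dusp1 changed sign, and the median of all genes tested moved to 0.29. With quantile normalization 6 were lower and 4 higher, as Egr1 changed sign. Groups were fully separate in 1 of the 10 genes, Nr4a1, against 41.8% of all genes tested.

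**Figure D1:**
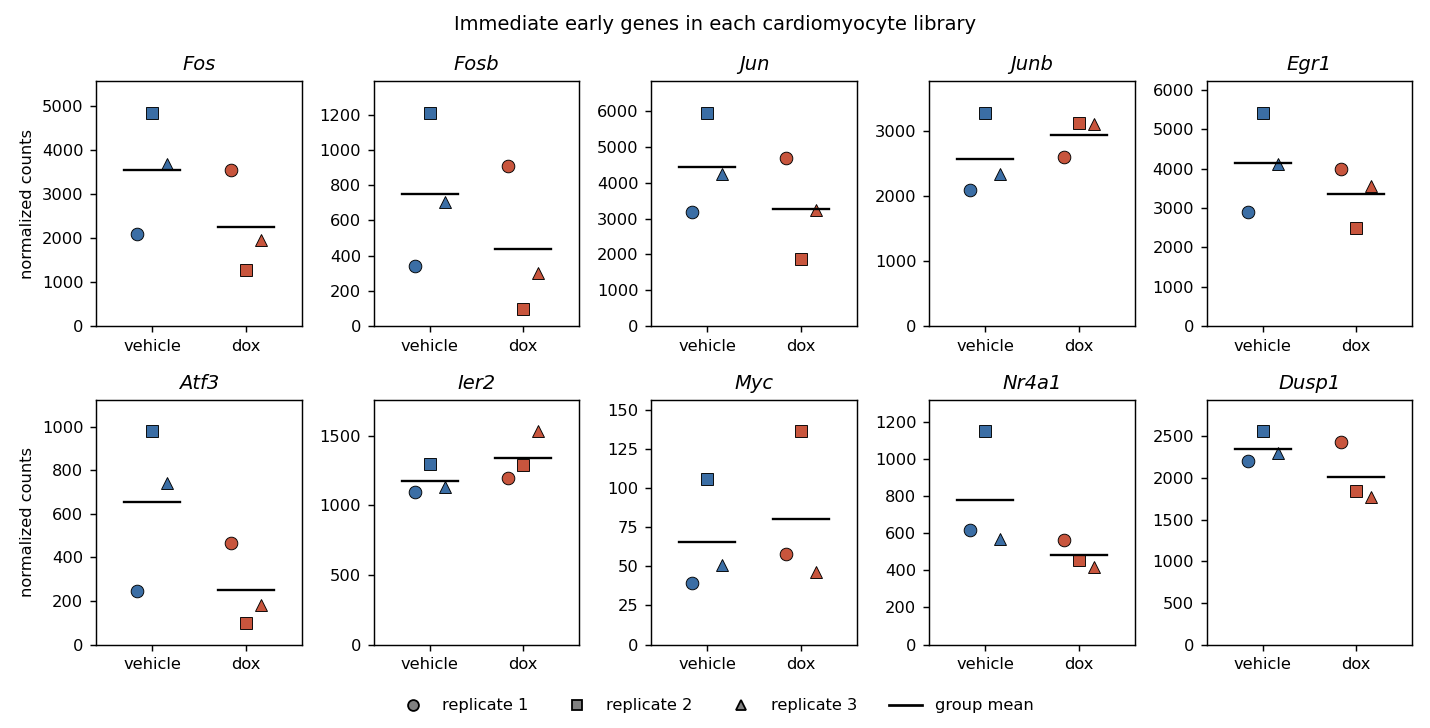
Normalized counts (y axis, linear, from 0, one scale per gene) of the 10 immediate early genes in the 3 vehicle and 3 doxorubicin (dox) libraries; points are libraries, with the shape giving the replicate number, and bars are group means. Vehicle replicate 2 is the highest vehicle library in each panel, and doxorubicin replicate 2 is the lowest of the 6 libraries for Fos, Fosb, Jun, Egr1 and Atf3.

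Among the Fos family, Fos (chromosome 12, 85473890 to 85477274, mm10) had 2083, 4837 and 3687 normalized counts after vehicle, against 3532, 1265 and 1947 after doxorubicin. Doxorubicin replicates 2 and 3 lay below every vehicle library, while replicate 1 lay inside the vehicle range. The means were 3535 ± 1380 and 2248 ± 1160 (SD, n = 3 in each group), a log2 difference of -0.70 (SE 0.43, 95% interval -1.71 to 0.31, limma adjusted p 0.273). Fosb (chromosome 7, 19302696 to 19310118), a Fos relative that also gives a long-lived truncated product, held 339, 1210.35 and 707 after vehicle, against 908, 98.5 and 299 after doxorubicin. Its doxorubicin libraries differed among themselves by 9.22-fold, the widest range of the 10 genes, and lay on both sides of the lowest vehicle library. The log2 difference was -1.14 (SE 0.78, 95% interval -2.96 to 0.68, adjusted p 0.316).

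Atf3 (chromosome 1, 191170296 to 191183333), which homodimerizes as a repressor or pairs with Jun proteins, had the largest difference of the 10. It held 244, 979 and 741 normalized counts after vehicle, against 467, 99.98 and 180 after doxorubicin, with means of 655 ± 375 and 249 ± 193 (SD, n = 3 in each group). Replicates 2 and 3 were below the lowest vehicle library and replicate 1 above it. The log2 difference was -1.46 (SE 0.66, 95% interval -2.99 to 0.071, limma adjusted p 0.152). Within the vehicle group alone the highest Atf3 value was 4.01 times the lowest.

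Without doxorubicin replicate 1 the call changed for 3 of the 10 genes. In that comparison limma called 41.1% of the 12477 genes tested (19.3% higher and 21.8% lower), and among the 10 it called Atf3, Fosb and Fos, all lower, and 0 higher. The log2 differences were then -2.06 for Atf3 (SE 0.54, adjusted p 0.0174), -1.94 for Fosb (SE 0.57, adjusted p 0.0274) and -1.09 for Fos (SE 0.35, adjusted p 0.0391). The 3 of 10 called thus stand beside 41.1% of all genes called in either direction and 21.8% called lower. As doxorubicin replicate 1 was singled out partly for its likeness to vehicle, more calls without it follow in part from that choice. Groups were fully separate in 5 of the 10, all lower (Fos, Fosb, Atf3, Nr4a1 and Dusp1), against 64.4% of all genes tested (31.6% higher and 32.9% lower). Leaving out doxorubicin replicate 2 instead brought the log2 difference of Fosb to -0.34, of Fos to -0.35 and of Atf3 to -0.95. Without vehicle replicate 2 these differences were -0.71, -0.43 and -1.06 in the same order.

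**Figure D2:**
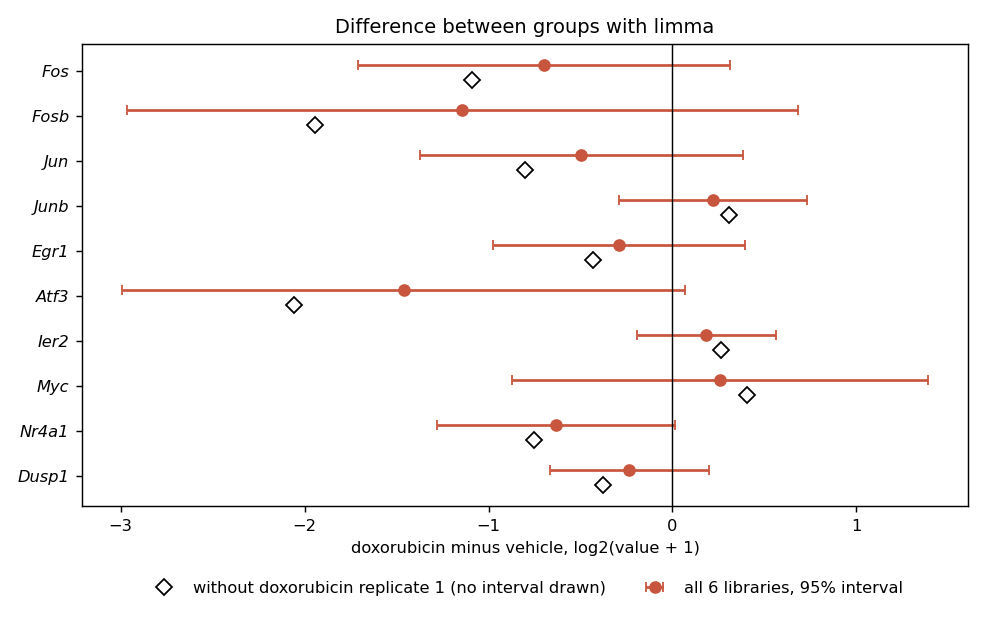
Log2 difference, doxorubicin minus vehicle, for the 10 genes (x axis, log2 of the value + 1); filled points with bars are the limma estimate and its 95% interval from all 6 libraries, and open diamonds are the estimate without doxorubicin replicate 1. Each of the 10 intervals spans 0, and the diamonds of Atf3, Fosb and Fos lie farthest below it.

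The 10 genes are short. Their median span in the genome was 3567 bases, against 24733 over the 11948 tested genes with a RefSeq span, and their transcripts had 1 exon (Jun, Junb and Ier2) to 7 (Nr4a1), against a median of 9. Promoter windows from RefSeq (GRCm38.p6, 250 bases before to 50 after the annotated start) were matched for 7 of the 10: Fos, Fosb, Jun, Junb, Atf3, Nr4a1 and Dusp1. Those of Myc, Egr1 and Ier2 are not shown. A selection follows, read 5′ to 3′ on the strand of the gene: Fos, Fosb and Atf3, the 3 genes called lower without doxorubicin replicate 1, then Junb, whose mean was higher, and Nr4a1, whose groups did not overlap. They lie at chr12:85473640-85473939 (plus strand), chr7:19309996-19310295 (minus), chr1:191183284-191183583 (minus), chr8:84978699-84978998 (minus) and chr15:101266596-101266895 (plus). The Nr4a1 window lies well inside the span of the gene, which begins at 101253902, so its annotated start is an internal one. The start used for Fosb is also internal: on the minus strand that gene begins at 19310118, inside the window and before the start. The core marked in the Fosb window thus lies within the span of the gene. Capitals mark the core of the cAMP response element, TGACG or its reverse complement, and the TATA motif TATAAA.
Fos: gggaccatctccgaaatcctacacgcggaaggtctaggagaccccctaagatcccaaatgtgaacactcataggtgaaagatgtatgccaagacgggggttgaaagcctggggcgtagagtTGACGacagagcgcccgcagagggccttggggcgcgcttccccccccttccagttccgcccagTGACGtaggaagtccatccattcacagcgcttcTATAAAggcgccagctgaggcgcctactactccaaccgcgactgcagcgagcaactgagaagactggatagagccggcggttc
Fosb: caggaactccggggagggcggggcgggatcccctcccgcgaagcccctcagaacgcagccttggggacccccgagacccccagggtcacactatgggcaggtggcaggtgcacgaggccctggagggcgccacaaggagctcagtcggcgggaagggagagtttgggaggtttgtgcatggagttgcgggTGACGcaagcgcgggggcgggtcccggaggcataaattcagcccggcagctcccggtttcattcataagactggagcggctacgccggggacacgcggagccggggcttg
Atf3: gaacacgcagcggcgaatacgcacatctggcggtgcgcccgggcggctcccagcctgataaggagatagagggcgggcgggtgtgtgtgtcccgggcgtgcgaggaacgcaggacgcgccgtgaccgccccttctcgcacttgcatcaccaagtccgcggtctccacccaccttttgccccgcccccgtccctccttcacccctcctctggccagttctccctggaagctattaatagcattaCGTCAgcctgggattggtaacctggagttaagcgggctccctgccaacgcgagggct
Junb: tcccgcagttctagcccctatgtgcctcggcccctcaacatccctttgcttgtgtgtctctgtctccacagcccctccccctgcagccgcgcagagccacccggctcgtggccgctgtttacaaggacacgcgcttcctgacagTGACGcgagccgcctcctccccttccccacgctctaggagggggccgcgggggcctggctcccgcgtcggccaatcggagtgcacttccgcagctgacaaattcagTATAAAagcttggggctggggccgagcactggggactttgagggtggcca
Nr4a1: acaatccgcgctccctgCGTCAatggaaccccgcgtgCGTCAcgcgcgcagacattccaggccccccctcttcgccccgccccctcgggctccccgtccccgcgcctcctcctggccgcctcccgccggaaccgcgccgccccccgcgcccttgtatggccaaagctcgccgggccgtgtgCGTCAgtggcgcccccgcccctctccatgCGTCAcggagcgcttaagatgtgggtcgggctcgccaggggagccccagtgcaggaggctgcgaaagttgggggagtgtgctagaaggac

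The core TGACG, on either strand, was found in 6 of the 7 windows (all but that of Jun) and in 20.8% of 32851 RefSeq windows of the same 300 bases. It was added to the search after the sequences had been read, and it lies within the full element. Fos held 2 cores, starting 129 and 66 bases before the annotated start, with a TATA motif 33 bases before it, and Nr4a1 held 4. Fosb, Junb and Atf3 held 1 each. The full element TGACGTCA was present in Dusp1 alone, 143 bases before the start, against 1.79% of all windows. The AP-1 site TGANTCA (7.81% of all windows) and the CArG box bound by serum response factor (1.63%) had 0 matches in the 7 windows. Sequence farther upstream than these windows was not searched, and Myc, Egr1 and Ier2 had no matched window. Inside the windows, variants that depart from the patterns searched were not counted. The absence of a match therefore does not show that a gene lacks the site. TATAAA was found in Fos and Junb and in 13.6% of all windows, and in Junb it began at the annotated start itself. All motifs were searched on both strands, and a match describes the letters only.

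The Jun proteins are the partners of Fos proteins in AP-1, and the RNAs of the pair followed here differed in direction. Jun (chromosome 4, 95049036 to 95052222) held 3180.1, 5955 and 4239 normalized counts after vehicle, against 4695, 1879.5 and 3249.8 after doxorubicin. Only doxorubicin replicate 2 lay below the vehicle range. The log2 difference was -0.49 (SE 0.38, limma adjusted p 0.364). Junb (chromosome 8, 84976909 to 84978748), a weaker activator than Jun that can restrain it, held 2091, 3277 and 2331 after vehicle, against 2602, 3119 and 3111 after doxorubicin. All 3 doxorubicin values lay inside the vehicle range, and the log2 difference was 0.22 (SE 0.22, adjusted p 0.491). The doxorubicin libraries were close to one another in Junb, with a highest value 1.20 times the lowest, in the same libraries that differed by 2.5-fold in Jun.

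A ratio of 2 genes inside a library does not depend on how libraries were scaled to each other. The ratio of Jun to Junb was 1.52, 1.82 and 1.82 after vehicle, against 1.80, 0.603 and 1.04 after doxorubicin. The ratio of Fos to Junb was 0.996, 1.48 and 1.58 against 1.36, 0.406 and 0.626. In both ratios doxorubicin replicates 2 and 3 were below every vehicle library and replicate 1 was within the vehicle range, so the groups overlapped. The ratio of Fosb to Fos was 0.163, 0.250 and 0.192 against 0.257, 0.0779 and 0.153, with doxorubicin replicates 2 and 3 again below every vehicle library and replicate 1 slightly above them. Of 9 ratios computed, 1 had groups apart, that of Nr4a1 to Ier2, at 0.567, 0.888 and 0.503 against 0.473, 0.356 and 0.275. All but Fosb to Fos were ratios to Junb or Ier2, whose means were higher after doxorubicin. A lower ratio there follows in part from the choice of pair, and no share over other pairs was computed. No permutation test was run on the ratios, since in a design of 3 against 3 the smallest exact p, on both sides, is 0.1.

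Egr1 (chromosome 18, 34861207 to 34864956) held 2899, 5416 and 4114 normalized counts after vehicle, against 3986, 2488 and 3568 after doxorubicin. Only doxorubicin replicate 2 was outside the vehicle range. Its log2 difference was -0.29 (SE 0.29, limma adjusted p 0.498) and changed sign to 0.012 with equal totals and to 0.052 with quantile normalization. Ier2 (chromosome 8, 84661331 to 84662852) was the steadiest of the transcriptional regulators. It held 1094, 1295 and 1134 after vehicle, against 1198, 1289 and 1530.4 after doxorubicin, and only doxorubicin replicate 3 exceeded the vehicle range (log2 difference 0.18, SE 0.16, adjusted p 0.433). Against Ier2 in the same library, Egr1 stood at 2.65, 4.18 and 3.63 after vehicle, against 3.33, 1.93 and 2.33 after doxorubicin.

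Nr4a1 (chromosome 15, 101253902 to 101274795), the orphan receptor also called Nur77, was the only one of the 10 with groups that did not overlap. It held 620.1, 1149 and 571 normalized counts after vehicle, against 566, 459 and 420.5 after doxorubicin. The gap between the groups was the step from 571 to 566. The means were 780.0 ± 321 and 482 ± 75.5 (SD, n = 3 in each group) and the log2 difference was -0.63 (SE 0.28, 95% interval -1.28 to 0.016, limma adjusted p 0.146). Without vehicle replicate 2 the difference was -0.315.

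Dusp1 (chromosome 17, 26505591 to 26508472), which dephosphorylates p38, JNK and ERK, varied least among the vehicle mice. Its values were 2204, 2559 and 2298 after vehicle, against 2429.8, 1846 and 1778 after doxorubicin. Replicates 2 and 3 were below the vehicle range and replicate 1 was inside it. The log2 difference was -0.23 (SE 0.19, limma adjusted p 0.387), -0.37 without doxorubicin replicate 1 (adjusted p 0.0916), and 0.068 with equal totals, where the sign changed. The ratio of Dusp1 to Ier2 was 2.01, 1.98 and 2.03 after vehicle, against 2.03, 1.43 and 1.16 after doxorubicin, so these 2 genes kept a nearly fixed ratio in 4 libraries and a lower one in the remaining pair.

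Myc (chromosome 15, 61985341 to 61990361) was the least abundant of the 10, with 39.6, 105.7 and 50.7 normalized counts after vehicle, against 58.0, 136 and 46.3 after doxorubicin. The highest value of each group was in its replicate 2. The fewest reads behind a value were about 31, in doxorubicin replicate 3. The log2 difference was 0.26 (SE 0.49, 95% interval -0.87 to 1.39, limma adjusted p 0.722), and it became 0.66 without vehicle replicate 2, -0.20 without doxorubicin replicate 2 and -0.033 without vehicle replicate 1. No direction can be given for Myc from these libraries.

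To compare genes with one another, values were divided by the length of the transcript. Per kilobase in the vehicle libraries, Fos came first at 1677 ± 656 normalized counts (SD, n = 3), followed by Junb at 1419 ± 347, Jun at 1398 ± 439, Egr1 at 1365 ± 415 and Dusp1 at 1183 ± 92.4. Neighbours among Fos, Junb, Jun and Egr1 differed by less than the SD of either. Ier2 followed at 772 ± 69.8. Atf3 at 329.9 ± 189 and Nr4a1 at 315 ± 130 also differed by less than the SD of either, Fosb came next at 199 ± 116, and Myc was last at 27.9 ± 15.1. After doxorubicin Junb came first, at 1627 ± 164, and Fos stood at 1067 ± 552.

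The spread among vehicle mice was the other feature of these genes. The SD of the log2 value over the 3 vehicle libraries was 1.06 for Atf3, 0.92 for Fosb, 0.73 for Myc, 0.62 for Fos, 0.55 for Nr4a1, 0.45 for Jun and for Egr1 and 0.34 for Junb, against a median of 0.16 over all genes tested. Set against the 1000 genes nearest in mean level, 8 of the 10 lay above the 90th percentile of that SD, from 96.3 for Junb to 99.8 for Fosb and Atf3. Ier2 (SD 0.13) and Dusp1 (0.11) lay at the 48.9th and 38.2nd percentiles and did not share this spread. In the doxorubicin group the SD was 1.6 for Fosb and 1.12 for Atf3, but 0.15 for Junb and 0.22 for Nr4a1, against a median of 0.33 over all genes tested.

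**Figure D3:**
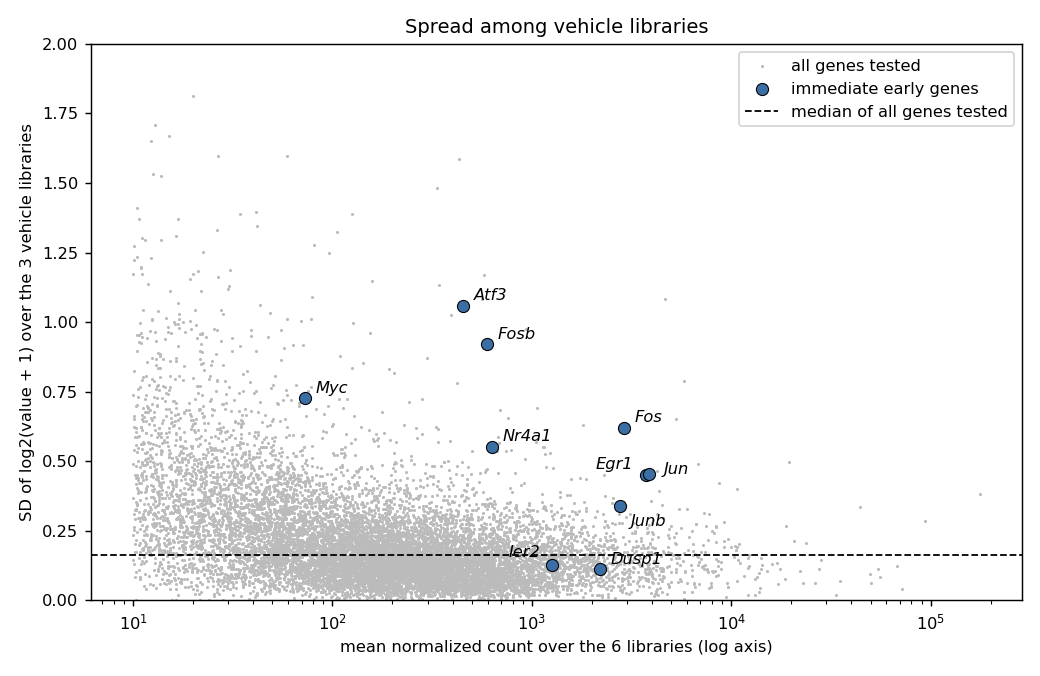
SD of log2(value + 1) over the 3 vehicle libraries (y axis) against the mean normalized count over the 6 libraries (x axis, log) for the 12477 genes tested (grey) and the 10 immediate early genes (blue, named); the dashed line is the median of 0.16, and 24 grey points lie above the axis. Atf3 and Fosb lie near 1, far above genes of like level, while Ier2 and Dusp1 lie below the dashed line.

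The vehicle libraries took the same order in gene after gene. Vehicle replicate 2 was the highest vehicle library in 10 of the 10, against 27.9% of all genes tested, and the highest of the 6 libraries in 8 of the 10, against 9.91%. Vehicle replicate 1 was the lowest vehicle library in 9 of the 10, against 33.8%. Relative to the mean of the vehicle libraries, the median of the 10 genes was -0.45 in vehicle replicate 1, 0.50 in replicate 2 and -0.028 in replicate 3 on the log2 scale. In the doxorubicin group it was 0.040 in replicate 1, -0.69 in replicate 2 and -0.41 in replicate 3. Doxorubicin replicate 1 lay inside the vehicle range in 9 of the 10 genes, against 36.0% of all genes tested. A wider vehicle range takes in another library more easily, and the median vehicle SD was 0.502 in the 10 genes against 0.163 over all genes tested. The 10 genes share libraries and were read from the same cells, so these counts describe 6 libraries and not independent events.

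Of 10 heat shock genes tested, vehicle replicate 2 was the highest vehicle library in 5 (Hspa1a, Hspa1b, Hspb1, Dnajb1 and Dnaja1) and not in Hsp90aa1, Hspa8, Hspe1, Hspd1 and Hsph1. The 3 described next were chosen after their values were seen. The inducible HSP70 genes Hspa1a and Hspa1b, near-identical copies between which reads may be split, are induced by heat and by cell handling. Hspa1a held 279, 1134 and 275 normalized counts after vehicle, against 1189.9, 321 and 257 after doxorubicin, and Hspa1b held 196, 893 and 105 against 961, 286 and 149. Vehicle replicate 2, the highest vehicle library of the 10 genes, and doxorubicin replicate 1, the highest doxorubicin library for Fos, Fosb, Jun, Egr1 and Atf3, were thus the pair with high Hspa1a and Hspa1b. Dnajb1, a co-chaperone of HSP70, was also highest in those libraries within each group, at 526 and 426. The match was partial. Within the doxorubicin group, replicate 1 was also highest for Nr4a1 and Dusp1, but it was lowest for Junb and Ier2 and in between for Myc. Vehicle replicate 3, low in Hspa1a and Hspa1b, held more Fos, Egr1 and Atf3 than doxorubicin replicate 1, and less Fosb and Jun. The part of these heat shock genes in the spread of the immediate early genes was not tested.

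Xist, transcribed from the inactive X chromosome, and the Y-linked Ddx3y divided the libraries in another way than treatment, with vehicle replicate 3 and doxorubicin replicates 1 and 3 in the class with Xist. Within the class with Ddx3y the median log2 difference of the 10 genes was -0.78 and within the class with Xist -0.14, with 7 of the 10 lower in each. These are values without a test, because the former class holds 1 doxorubicin library and the latter 1 vehicle library. Fos stood at -1.33 and -0.49 in the 2 classes, Fosb at -2.69 and -0.44, and Atf3 at -2.28 and -1.35.

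Relatives of the AP-1 proteins showed another pattern than Fos, Fosb and Atf3. Of 13 listed genes 10 were tested and 0 passed. The mean log2 value after doxorubicin was higher in 9 and lower in 1, with a median log2 difference of 0.25, and 1 (Jdp2) had groups that did not overlap, against 19.2% of all genes tested that were higher without overlap. Jdp2, which represses AP-1 by pairing with Jun, held 76.4, 60.8 and 60.2 normalized counts after vehicle, against 107.7, 254 and 249.5 after doxorubicin (log2 difference 1.52, SE 0.34, limma adjusted p 0.0859). The small Maf proteins, which lack an activation domain, lay above the vehicle range in doxorubicin replicates 2 and 3 and not in replicate 1: Maff held 81.5 to 97.7 after vehicle, against 84.4, 424 and 222 after doxorubicin. Without doxorubicin replicate 1, limma called 5 of the 10, all higher (Jdp2, Maff, Mafg, Mafk and Fosl2), where it called 19.3% of all genes higher. Fosl2, the Fos relative Fra-2, held 333, 445 and 238 against 329, 881 and 458. Jund, the constitutive Jun gene, held 1997 to 2170 after vehicle, against 1892 to 2004 after doxorubicin, and its log2 difference of -0.11 became 0.20 with equal totals and 0.13 with quantile normalization.

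**Figure D4:**
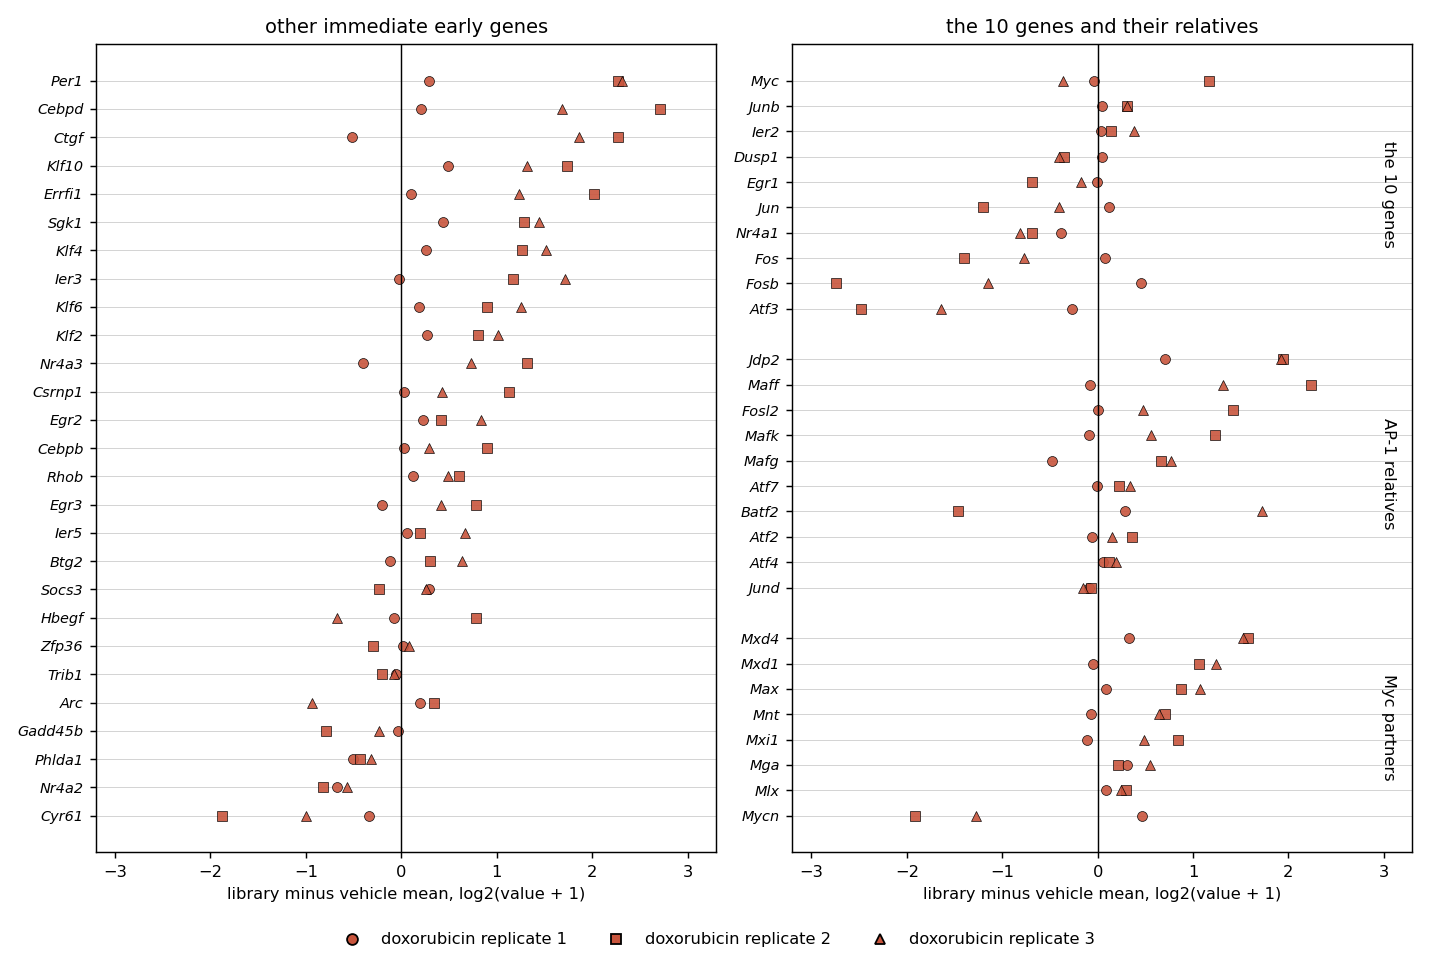
Log2 value of each doxorubicin library minus the vehicle mean (x axis) for the tested members of the lists of other immediate early genes (left) and of the 10 genes, AP-1 relatives and Myc partners (right); circles, squares and triangles are doxorubicin replicates 1, 2 and 3. The circles lie close to 0 in most genes, while squares and triangles of Atf3, Fosb, Fos and Cyr61 lie to the left and those of Per1, Cebpd, Jdp2 and Mxd4 to the right.

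Among 28 further immediate early genes, 27 were tested and 0 passed. Of these, 20 had higher and 7 lower mean values, with a median log2 difference of 0.41. Groups did not overlap in 3 that were higher (Klf10, Klf2 and Sgk1) and in 1 that was lower (Phlda1), against 19.2% and 22.6% of all genes tested. Without doxorubicin replicate 1, limma called 10 of the 27 higher and 1 lower, against 19.3% and 21.8% of all genes tested. Per1 and Cebpd, described next, had the largest log2 differences of the 27. Per1, a clock gene, held 198, 239.7 and 142 normalized counts after vehicle, against 231, 918 and 942 after doxorubicin (log2 difference 1.63, SE 0.53, adjusted p 0.0878). Cebpd, a C/EBP factor of the acute phase, held 218, 289 and 154 against 245, 1397 and 684 (1.53, SE 0.58, adjusted p 0.108). Of the Krüppel-like factors, Klf4 held 917, 1088 and 689 against 1056, 2130.2 and 2524, and Klf2 held 1492, 1669 and 1089 against 1686, 2436 and 2805.

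Cyr61 and Ctgf, matricellular genes that are often induced together, differed in opposite directions. Cyr61 held 1471, 3521 and 2291 normalized counts after vehicle, against 1802, 618 and 1140.0 after doxorubicin, the order of libraries seen for Fos in the vehicle group. Its log2 difference was -1.07 (SE 0.44, limma adjusted p 0.127), and without doxorubicin replicate 1 it was the 1 gene of the list called lower (-1.44, adjusted p 0.0179). Ctgf held 448, 609.8 and 649 against 392, 2712 and 2039 (1.20, SE 0.66, adjusted p 0.218; 2.06 without doxorubicin replicate 1, adjusted p 0.0004). Vehicle replicate 2 was the highest vehicle library in 22 of the 27 genes, Ctgf being among the 5 exceptions, against 27.9% of all genes tested.

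Upstream of these genes, 16 transcription factors and kinases were tested and 0 passed; 9 were higher and 7 lower, and the groups did not overlap in 8 higher and 5 lower, against 19.2% and 22.6% of all genes tested. The 2 with the smallest p were Mapk8, which encodes JNK1, at 279 ± 16.8 in the vehicle and 188 ± 25.6 in the doxorubicin group (log2 difference -0.58, SE 0.16, limma adjusted p 0.0859), and Mkl2, a coactivator of serum response factor, at 301 ± 13.2 and 470.1 ± 97.0 (0.62, SE 0.18, adjusted p 0.0859). Srf itself, named after its values were seen, held 1292, 1175 and 1376 normalized counts after vehicle, against 1072, 561 and 581 after doxorubicin, with groups that did not overlap (-0.86, SE 0.26, adjusted p 0.0859). Of 7 tested dual specificity phosphatases other than Dusp1, 3 were higher and 4 lower, with 1 and 2 that did not overlap, near the shares of 19.2% and 22.6% over all genes tested, and with equal totals 5 were higher and 2 lower. Dusp8 differed by more than its spread, at 465 ± 22.9 and 271 ± 19.0 (SD, n = 3 in each group; log2 difference -0.77, SE 0.13, adjusted p 0.0859), and Dusp10 stood at 95.8 ± 3.88 and 40.4 ± 25.7 (-1.40, SE 0.40, adjusted p 0.0859). Both act on JNK and p38, as Dusp1 does.

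Myc works as a dimer with Max, for which the Mxd proteins, Mxi1, Mnt and Mga compete. Of 10 listed partners and relatives 8 were tested and 0 passed, 7 were higher and 1 lower, and the median log2 difference was 0.42. Max held 315, 359 and 311 normalized counts after vehicle, against 349, 602 and 691 after doxorubicin (log2 difference 0.68, SE 0.26, limma adjusted p 0.108). Mxd4, an antagonist of Myc, held 197 to 231 after vehicle, against 274, 656 and 628 after doxorubicin, without overlap (1.14, SE 0.33, adjusted p 0.0859). Without doxorubicin replicate 1 limma called 5 of the 8 higher and 1, Mycn, lower, against 19.3% and 21.8% of all genes tested. Mycn was the 1 lower gene, at 76.6, 50.5 and 62.7 against 86.5, 15.8 and 25.4. Of 15 targets of Myc, 2 were higher and 13 lower, with a median of -0.14 that became 0.16 with equal totals; without doxorubicin replicate 1 limma called 2 of the 15, Ldha and Ccnd2, both lower, which is below the 21.8% of all genes called lower.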

How the data were processed

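RNA was measured in 6 libraries, 3 per group, grouped by sample title. Per the labels, reads were aligned to mm10 with RefSeq genes by STAR in the BaseSpace RNA-seq Alignment application 2.0.2, followed by the RNA-seq Differential Expression application 1.0.1; the submitters' processing notes name STAR 2.6.1a and Salmon. How strand was used and which normalization was applied is not given in the sources used here. Values were deposited as a signal per gene and library: normalized counts, not whole numbers. All 24972 rows were named, but 26 names read as dates and are not reported. No column of the table (0) was left unused.

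From these values log2(value + 1) was taken, genes with a mean of at least 10 were kept, and limma 3.58.1 in R 4.3.3 (empirical Bayes with a mean-dependent prior, two-sided, Benjamini-Hochberg over all 12477 genes, threshold 0.05) compared the groups. Differences are doxorubicin minus vehicle and understate the change of low genes. The limma fit was tested on simulated data with the same spread for every gene and group and no library standing apart. These data differ from that, so the test checks the code and not the fit to them. Reads per library were estimated from the most common low value; intervals of limma cover the spread between these samples, and no label says more of how replicates relate than that mice were 3 per group. The 10 genes and the lists were chosen with earlier results of these data known. Named were the 10 genes and members of the lists of AP-1 relatives, Myc partners and other immediate early genes. Any member of those lists could be named, so which were described was not fixed before their values were seen. Of each further list the 2 with the smallest p were named, and others are marked as chosen after their values were seen. Spans come from RefSeq GRCm38.p6, the assembly of mm10, and transcript lengths from GENCODE M21. Where replicate numbers match between groups, deviations from the group means correlated at -0.128, 0.0331 and -0.0928, so the numbers were not taken to pair the samples. Figures were drawn with matplotlib 3.10.9.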

Additional observations from a re-analysis of the deposited data

How the results depend on the processing

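Each of the 10 log2 differences was recomputed under 17 alternatives, all planned, giving 170 values, of which 160 kept their direction and side of the threshold, 5 changed sign and 5 passed the threshold in the same direction. Those that passed were Fos, Fosb and Atf3 without doxorubicin replicate 1, and Fosb (-2.13, limma adjusted p 0.0394) and Atf3 (-2.18, adjusted p 0.0286) with library weights, which gave doxorubicin replicate 1 a weight of 0.277. The sign changed for Egr1 with equal totals (0.012) and quantile normalization (0.052), for Dusp1 with equal totals (0.068), and for Myc without vehicle replicate 1 (-0.033) and without doxorubicin replicate 2 (-0.20), against 0.664 without vehicle replicate 2; equal totals moved the median of all genes to 0.29. Over the same alternatives the median of the 10 ran from -0.72 with library weights to -0.075 with quantile normalization. Pseudocounts of 0.5 and 8, no filter, a minimum mean of 50, no trend and robust estimation left the sign and call of all 10 as they were, as did the covariate for the classes with Xist and Ddx3y. Over all genes, limma called 0 higher and 0 lower except with library weights (1954 higher, 2318 lower) and when a library was left out, where the number called higher was between 0 and 2409 and lower between 0 and 2718, the most without doxorubicin replicate 1. With the replicate number as a block limma called 0 genes higher and 0 lower, and the adjusted p was 0.217 for Atf3 and 0.367 for Fos. Depth limits Myc most, with about 31 reads in doxorubicin replicate 3.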

Other observations

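Genes of the integrated stress response, in which Atf4 is known to drive Atf3 and Ddit3, differed in both directions. Of 11 tested, 6 were higher and 5 lower after doxorubicin, 0 passed with limma, and without doxorubicin replicate 1 it called 5 higher and 2 lower, against 19.3% and 21.8% of all genes tested. Ddit4, an inhibitor of mTORC1 signalling, held 275, 199 and 122 normalized counts after vehicle, against 290.5, 1737 and 1425 after doxorubicin (log2 difference 2.25, SE 0.65, limma adjusted p 0.0859). Nupr1, a small stress-induced chromatin protein, held 11.4 to 17.1 against 29.4, 80.1 and 89.9 (2.05, SE 0.45, adjusted p 0.0859). Ddit4 and Nupr1 were among 3 of the 11 that were higher without overlap, and 1 was lower without overlap. The shares over all genes tested were 19.2% and 22.6%. Both Ddit4 and Nupr1 were highest in the libraries where Atf3 was lowest. Ddit3, which encodes CHOP, held 97.0 to 125 after vehicle, against 82.7 to 128 after doxorubicin (named after its values were seen). Of 10 heat shock genes tested, 3 were higher and 7 lower; the 2 with the smallest p were the mitochondrial chaperonins Hspe1, at 998 ± 69.6 and 556 ± 178 (SD, n = 3 in each group), and Hspd1, at 3762 ± 406 and 2323 ± 621.

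Over the 6 libraries, the 5 genes whose log2 values were most like the median profile of the 10 (Pearson r, used only to rank 10001 candidates with a mean of at least 50) were Usp38 (r = 0.984), Otud4 and Srcap (both 0.976), Mob1b (0.975) and Lmbr1 (0.969). Their values varied far less than those of Fos: Usp38 ran from 191 in doxorubicin replicate 2 to 282 in vehicle replicate 2, and Otud4 from 526 to 805 in the same libraries. Being the highest of many, these r are a ranking and no measure of a relation.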
